A study of Rattus norvegicus with 17 samples.

Results

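The 5 genes described here are Tsc22d3, Fkbp5, Sgk1 and Dusp1, which glucocorticoids are known to induce, and Nr3c1, which encodes the glucocorticoid receptor itself. They were taken by gene symbol from the 14217 genes measured, and each was read from the probe set with the highest mean over the arrays. Male Harlan Sprague-Dawley rats had received corn oil vehicle alone or with isopropylated phenol phosphate (IPP), a triaryl phosphate used to retard flames and to soften plastics, by oral gavage once a day for 4 days. The left liver lobe was then sampled, and RNA of each of 17 rats was hybridised to 1 single-colour array. The vehicle group held 5 rats that received corn oil without IPP. The 4 treated groups held 3 rats each and received 76.5, 153, 305.5 or 611 mg/kg/day in corn oil (the treatment protocol rounds the first and the third to 77 and 306 mg/kg). On a molar scale the doses ran from 0.169 to 1.35 mmol/kg, with 0.338 and 0.675 mmol/kg between. The labels name no genetic change, age or batch, and the p-values below measure the spread between these rats. IPP is a mixture, and the labels do not give its composition.

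Glucocorticoids cross the cell membrane and bind a receptor that a complex of HSP90 heat shock proteins and co-chaperones holds in the cytoplasm. The bound receptor moves to the nucleus, binds DNA response elements and raises the transcription of its target genes. In liver these targets include enzymes of gluconeogenesis and amino acid breakdown, and several targets act back on the signal: Fkbp5 is a co-chaperone that lowers the receptor's affinity for hormone, Tsc22d3 (also known as GILZ) binds and restrains inflammatory transcription factors, and Dusp1 removes phosphate from MAP kinases. Sgk1 is a kinase that glucocorticoids and mineralocorticoids induce and that regulates ion transport.

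Tsc22d3 fell at all 4 doses, to between 0.51 and 0.60 times its vehicle level, and all 12 treated rats lay below all 5 vehicle rats. No other member fell in the test at any dose. Nr3c1 rose at 611 mg/kg to 1.44 times its vehicle level. Fkbp5 had a lower mean at every dose but a wide spread between rats and did not pass the test, and neither did Sgk1 or Dusp1. The number of members that passed was therefore 1 of 5 at 76.5, 153 and 305.5 mg/kg and 2 of 5 at 611 mg/kg, where 0.267%, 0.746%, 2.22% and 7.46% of all genes passed. The test was limma's moderated test over all 17 arrays with Benjamini-Hochberg adjustment over 14217 genes, and a gene passed at an adjusted p under 0.05. All doses were set against the same 5 vehicle rats, so the falls of Tsc22d3 at the 4 doses are not separate observations of its vehicle level. A fall of Tsc22d3 at the smallest dose was known when the 5 genes were chosen.

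**Figure D1:**
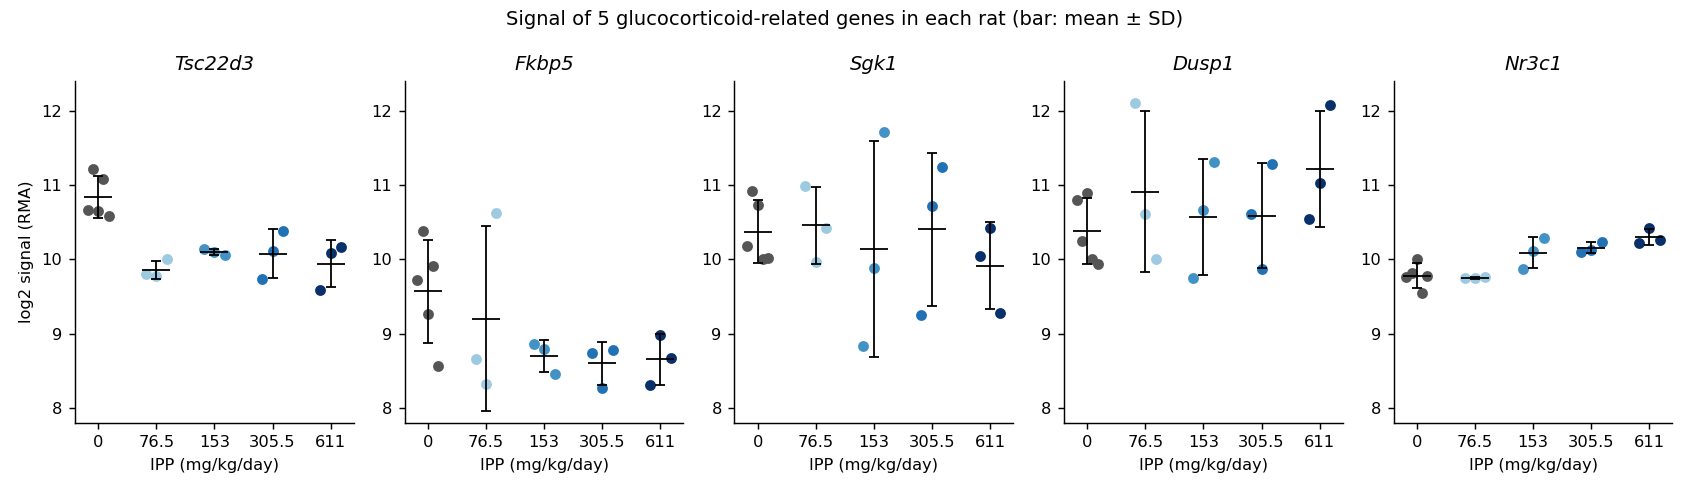
Log2 signal (RMA) of the 5 genes in each rat against the daily dose of IPP in mg/kg, with 0 for vehicle; each point is 1 rat, and each bar is the group's mean with its SD. All 12 treated rats lie below the vehicle rats for Tsc22d3, and the spread between rats of 1 group is widest for Sgk1, with an SD of 0.83 within groups.

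The labelled tissue was checked by its markers: 9 hepatocyte markers, among them Alb and Apoa1, had a mean between log2 13.9 and 14.2 on every array, and 0 of the 9 passed the limma test at any dose (at most 1 had an unadjusted p under 0.05). Of other cell types, 4 of 10 endothelial markers (Kdr, Lyve1, Pecam1 and Stab2) fell at 611 mg/kg and 1 of 10 (Pecam1) at 305.5 mg/kg. Over all genes 2.42% and 1.47% were lower at these 2 doses. The calls of Pecam1 at 305.5 mg/kg and Kdr at 611 mg/kg were lost in 5 and 1 of the 17 fits that left out 1 rat. In the slope over dose rank 6 of 10 endothelial markers and 6 of 12 of stellate cells and fibroblasts fell, against 2.78% of all genes. The summed endothelial signal ran from 6323 to 7492 in vehicle rats, from 6282 to 7121 at 76.5 mg/kg, from 7229 to 7323 at 153 mg/kg, from 4568 to 5917 at 305.5 mg/kg and from 4842 to 5118 at 611 mg/kg. At the largest dose 2 of 12 markers of stellate cells and fibroblasts (Acta2 and Pdgfrb) fell, with a summed signal of 5084 to 6726 against 6750 to 8312 in vehicle rats, while 0 of 9 macrophage and 0 of 14 lymphocyte markers passed in limma (5 and 6 had an unadjusted p under 0.05). At 305.5 mg/kg 2 of the 12 (Pdgfra and Pdgfrb) fell, with a summed signal of 5087 to 6076. Of 5 cholangiocyte markers, Epcam rose and Krt7 fell at 611 mg/kg, as 5.04% and 2.42% of all genes did. The summed signal of the 5 markers was 1022 to 1499 at that dose against 734 to 933 in vehicle rats. Epcam weighs most in this sum, with a vehicle mean of log2 9.19 against 6.52 for Spp1, the next brightest. The mean log2 signal of the 5 was 6.57 to 6.63 at that dose, within the vehicle range of 6.39 to 6.69. The macrophage signal summed to 8347 to 10015 at 611 mg/kg, to 8153 to 9765 at 305.5 mg/kg and to 9044 to 13097 in vehicle rats. At 305.5 mg/kg 0 of 9 macrophage markers passed in limma, and 6 had an unadjusted p under 0.05. Of 6 neutrophil markers 0 passed in limma at any dose. Their summed signal was 383 to 1146 at 76.5 mg/kg and 313 to 501 in vehicle rats. The part of these markers in the results below was not tested. In such tissue RNA, fewer cells of a type and less RNA per cell cannot be told apart. Rats 2 and 3 of the 76.5 mg/kg group and rat 2 of the 611 mg/kg group stood apart from the rest, with median correlations to the other arrays of 0.984 to 0.988 against at least 0.991 elsewhere. On the last of them the GAPDH control signal was 2.89 higher at the 3' than at the 5' end on the log2 scale, a range of 0.93 to 1.56 covering the remaining arrays. Values at 76.5 and 611 mg/kg are given for the members with and without these 3 arrays, which leaves 1 rat at 76.5 mg/kg.

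The genes lie on 5 chromosomes of the GRCr8 rat assembly. Tsc22d3 is at chrX:109006410-109066389, Fkbp5 at chr20:6458931-6577227, Sgk1 at chr1:24799391-24916886, Dusp1 at chr10:17184853-17187646 and Nr3c1 at chr18:31522783-31644508. RefSeq promoter windows were found for all 5 genes, 10 in all because 3 genes have several starts, and the 250 bases before each start were searched on both strands. The full glucocorticoid response element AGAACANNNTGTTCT was in 0 of the 10 windows and in 0.012% of 33469 rat promoter windows of that length. The half-site TGTTCT was in 0 of the 10 and in 17.5% of all windows. The motif TGACG, the core of the cAMP response element, was in 2 of the 10 and in 18.2% of all windows, and the E-box CACGTG was in 1 of the 10 (Dusp1) and in 5.59% of all. These matches describe letters in short windows. The windows that hold TGACG belong to Tsc22d3, whose signal fell, and Dusp1, whose mean was above vehicle at every dose without passing the test, and both are shown because no other member's windows held it. Capitals mark TGACG on either strand, with 2 overlapping matches in the last marked run of Dusp1.
Dusp1, chr10:17184603-17184852, plus strand: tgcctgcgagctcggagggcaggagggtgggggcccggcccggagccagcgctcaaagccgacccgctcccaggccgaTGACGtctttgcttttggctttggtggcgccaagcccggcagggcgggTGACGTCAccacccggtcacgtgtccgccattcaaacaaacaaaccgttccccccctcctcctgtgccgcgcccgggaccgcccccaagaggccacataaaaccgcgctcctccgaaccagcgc
Tsc22d3, 1 of 3 starts, chrX:109010035-109010284, minus strand: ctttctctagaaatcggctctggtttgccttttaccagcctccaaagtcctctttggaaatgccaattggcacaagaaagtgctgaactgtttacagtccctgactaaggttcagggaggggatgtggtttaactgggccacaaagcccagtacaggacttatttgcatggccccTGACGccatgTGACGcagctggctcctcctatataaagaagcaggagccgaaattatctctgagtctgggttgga
Which of the 3 Tsc22d3 starts gives the RNA that the probe set reads is not given in the sources used here.

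Tsc22d3 was read from its single probe set (1367771_at). The 5 vehicle rats had log2 signals of 10.66, 11.22, 10.65, 11.08 and 10.59. The rats at 76.5 mg/kg had 9.80, 9.77 and 10.00, and those at 153 mg/kg had 10.14, 10.10 and 10.06. Those at 305.5 mg/kg had 9.74, 10.11 and 10.38, and those at 611 mg/kg had 9.58, 10.08 and 10.17. The highest treated rat, at 10.38, was below the lowest vehicle rat, at 10.59, so no treated group overlapped the vehicle group. At the 4 doses 3.16%, 4.42%, 7.34% and 7.13% of all genes had every treated rat below every vehicle rat. Of all 14217 genes, 0.542% had all 12 treated rats below every vehicle rat.

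The log2 difference of Tsc22d3 from vehicle was -0.98 ± 0.17 (SE, n = 3 against 5) at 76.5 mg/kg, with a limma adjusted p of 0.0188. It was -0.74 ± 0.17 at 153 mg/kg (limma adjusted p = 0.0480), -0.76 ± 0.17 at 305.5 mg/kg (0.0216) and -0.90 ± 0.17 at 611 mg/kg (0.00435). The smallest dose thus had the largest fall, but the step from 76.5 to 153 mg/kg, at 0.24 ± 0.19, did not pass the test (limma adjusted p = 0.771). The steps to 305.5 and to 611 mg/kg were -0.02 ± 0.19 and -0.13 ± 0.19 and did not pass either, where 0%, 0% and 0.324% of genes passed for the 3 steps. Over all 5 groups Tsc22d3 passed limma's moderated F test (adjusted p = 0.00693), as 3.47% of genes did. The slope over the dose rank was -0.19 ± 0.05 per rank (limma adjusted p = 0.0369) where 6.74% of genes passed (2.78% downward and 3.96% upward), and it was 0.02 per rank over the treated rats alone. The treated rats were thus below vehicle at every dose, with no step between neighbouring doses that passed the test.

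The slope's call was lost in 7 of the 17 fits that left out 1 rat (adjusted p up to 0.0916, without rat 1 at 611 mg/kg), among them each fit without a vehicle rat. The call at 153 mg/kg was lost in 12 of those 17 fits, with adjusted p-values up to 0.236 (without rat 2 of that dose), and with replicate number as a block (adjusted p = 0.0893). At 76.5 mg/kg it was lost without rat 2 of that dose (-0.94, adjusted p = 0.0852) and without the 3 arrays that stood apart (-1.04, 0.245, 1 rat left), and at 305.5 mg/kg without rat 1 (-0.59, 0.149) or rat 2 (-0.78, 0.0772). At 611 mg/kg it held in all 17 such fits and without the 3 arrays (-0.96, limma adjusted p = 0.0101).

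**Figure D2:**
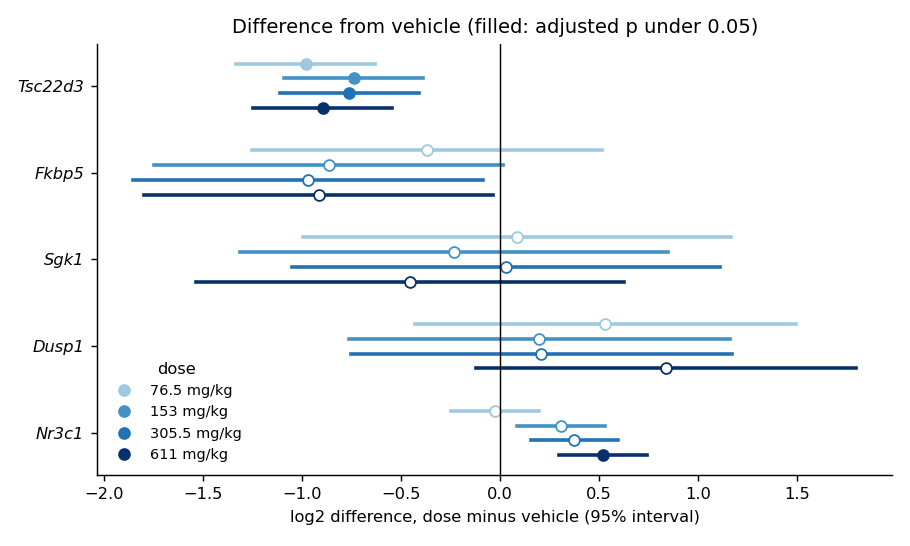
Log2 difference from vehicle (dose minus vehicle) of the 5 genes at each of the 4 doses, with the 95% interval from limma; filled points passed at an adjusted p under 0.05. Tsc22d3 is filled at all 4 doses, between -0.98 and -0.74, and Nr3c1 at 611 mg/kg, at 0.52.

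Fkbp5 was read from its brighter probe set (1388901_at). The vehicle rats had log2 signals of 9.72, 10.39, 9.26, 9.91 and 8.56. The rats at 76.5 mg/kg had 8.66, 8.32 and 10.62, and those at 153 mg/kg had 8.86, 8.80 and 8.46. Those at 305.5 mg/kg had 8.74, 8.27 and 8.78, and those at 611 mg/kg had 8.30, 8.98 and 8.68. Vehicle rat 5 was the lowest of its group, and 4 of the 12 treated rats lay below it. At 153, 305.5 and 611 mg/kg the treated rats overlapped with that vehicle rat alone, and at 76.5 mg/kg they spanned the whole vehicle range. Rat 3 at 76.5 mg/kg, 1 of the arrays that stood apart, had the highest value of all 17, and the other 11 treated rats lay between 8.27 and 8.98.

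The log2 difference of Fkbp5 was -0.37 ± 0.42 (SE) at 76.5 mg/kg, with a 95% interval from -1.25 to 0.51. Without rat 3 of that dose it was -1.08, a larger difference than that of Tsc22d3, and it was -0.91 without the 3 arrays that stood apart, and neither passed. With all rats it was -0.86 ± 0.42 at 153, -0.97 ± 0.42 at 305.5 and -0.92 ± 0.42 at 611 mg/kg, with limma adjusted p-values of 0.430, 0.304 and 0.192. These 3 differences were as large as those of Tsc22d3 at the same doses, while their standard error was larger. Without the 3 arrays the difference at 611 mg/kg was -1.08 and did not pass (limma adjusted p = 0.0722). The 95% intervals at 305.5 and 611 mg/kg ran from -1.85 to -0.09 and from -1.80 to -0.03, before any adjustment for the number of genes. The slope over dose rank was -0.26 ± 0.09 per rank (limma adjusted p = 0.0926), and without the 3 arrays that stood apart it was -0.28 and passed (0.0216). The dimmer probe set of Fkbp5 (1380611_at) had the same 76.5 mg/kg rat highest, at 9.48, and smaller differences of -0.01, -0.28, -0.41 and -0.28 at the 4 doses, none of which passed when every probe set was tested (limma adjusted p of at least 0.725).

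Sgk1 was read from its single probe set (1367802_at). The vehicle rats had log2 signals of 10.18, 10.93, 10.73, 10.01 and 10.02. The rats at 76.5 mg/kg had 10.99, 9.96 and 10.42, and those at 153 mg/kg had 8.83, 9.88 and 11.71. Those at 305.5 mg/kg had 9.26, 10.72 and 11.24, and those at 611 mg/kg had 10.05, 10.43 and 9.27. The lowest and the highest of all 17 rats were both in the 153 mg/kg group, and of the 12 treated rats 5 lay below the vehicle range, 3 above it and 4 within it. The log2 differences were 0.08, -0.23, 0.03 and -0.46 from the smallest to the largest dose, each ± 0.51 (SE), and none passed (limma adjusted p = 0.976, 0.896, 0.989 and 0.614). Without the 3 arrays that stood apart the differences at 76.5 and 611 mg/kg were 0.62 and -0.71, and neither passed (limma adjusted p = 0.9997 and 0.551). At 611 mg/kg the 95% interval ran from -1.54 to 0.62, which includes a fall of the size seen for Tsc22d3.

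Dusp1 was read from its brighter probe set (1368146_at). The vehicle rats had log2 signals of 10.80, 10.25, 10.89, 10.00 and 9.94. The rats at 76.5 mg/kg had 12.11, 10.62 and 10.00, and those at 153 mg/kg had 9.75, 10.66 and 11.31. Those at 305.5 mg/kg had 10.61, 9.87 and 11.28, and those at 611 mg/kg had 10.55, 11.03 and 12.07. The highest values were in rat 1 at 76.5 mg/kg and rat 3 at 611 mg/kg, and 5 of the 12 treated rats lay above the vehicle range, 2 below and 5 within it. The log2 differences were 0.53, 0.20, 0.21 and 0.84 from the smallest to the largest dose, each ± 0.46 (SE), and none passed (limma adjusted p = 0.737, 0.899, 0.898 and 0.270). Without the 3 arrays that stood apart the differences at 76.5 and 611 mg/kg were 1.73 and 0.93, and neither passed (limma adjusted p = 0.660 and 0.259). With arrays weighted by their quality, the difference at 76.5 mg/kg was 1.54 and passed (limma adjusted p = 0.0239). The weights at that dose were 5.04 for rat 1 and 0.31 and 0.27 for rats 2 and 3. This call therefore rests almost wholly on rat 1. The dim second probe set (1368147_at, mean log2 5.62) was also highest in rat 1 at 76.5 mg/kg and rat 3 at 611 mg/kg. It was at 6.83 and 7.08 in them and passed at no dose.

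Nr3c1, the receptor gene, was read from its brighter probe set (1368221_at). The vehicle rats had log2 signals of 9.76, 9.82, 10.00, 9.54 and 9.78. The rats at 76.5 mg/kg had 9.75, 9.74 and 9.77, and those at 153 mg/kg had 9.86, 10.12 and 10.28. Those at 305.5 mg/kg had 10.10, 10.13 and 10.24, and those at 611 mg/kg had 10.22, 10.42 and 10.26. All rats at 76.5 mg/kg lay within the vehicle range, 2 of 3 at 153 mg/kg lay above it, and all rats at 305.5 and 611 mg/kg lay above it. At 305.5 and 611 mg/kg, 6.37% and 11.5% of all genes had all treated rats above every vehicle rat.

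The log2 difference of Nr3c1 was -0.03 ± 0.10 (SE) at 76.5, 0.31 ± 0.10 at 153, 0.38 ± 0.10 at 305.5 and 0.52 ± 0.10 at 611 mg/kg, with limma adjusted p-values of 0.961, 0.252, 0.0739 and 0.00702. Nr3c1 thus passed at the largest dose, and its slope over dose rank, 0.14 ± 0.02 per rank, passed as well (limma adjusted p = 0.00177). Together with Tsc22d3 it made 2 of 5 members that passed for the slope and 2 of 5 that passed the F test over all groups (adjusted p = 0.0178). The second probe set (1368222_at) was dim in every rat, between log2 4.73 and 5.19, and its difference at 611 mg/kg was 0.02. Without the 3 arrays that stood apart Nr3c1 was at -0.03 at 76.5 mg/kg, passed at 305.5 mg/kg with 0.38 (limma adjusted p = 0.0499) and passed at 611 mg/kg with 0.46 (0.0336). With the mean of both probe sets the difference at 611 mg/kg was 0.27 and the call was lost (limma adjusted p = 0.0828).

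The members differed in how far rats of 1 group spread. The SD within groups, over 12 residual degrees of freedom, was 0.14 for Nr3c1, 0.25 for Tsc22d3, 0.68 for Fkbp5, 0.74 for Dusp1 and 0.83 for Sgk1 on the log2 scale. Among 10525 genes with a mean of at least log2 6, that of Nr3c1 stood at percentile 36.3 and that of Tsc22d3 at percentile 85.4. Those of Fkbp5, Dusp1 and Sgk1 stood at percentiles 99.5, 99.6 and 99.8. Differences of the size seen for Tsc22d3 were therefore within the 95% intervals of Fkbp5 and of Sgk1 at all 4 doses, within that of Dusp1 at 1 dose (153 mg/kg, from -0.76 to 1.16) and within that of Nr3c1 at 0 doses.

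Whether the change of Tsc22d3 differed from that of another member was tested on the difference of both log2 signals within each rat, with an exact two-sided permutation test and adjustment over 20 tests. Over the 12 treated and 5 vehicle rats, Tsc22d3 had changed by -0.84 and Nr3c1 by 0.29. Tsc22d3 minus Nr3c1 changed by -1.14, was below the vehicle range in 12 of 12 treated rats and passed (exact p = 0.000323, the smallest that 6188 splits allow, adjusted p = 0.00646). Tsc22d3 alone was already below every vehicle rat in these 12 rats, and its fall at the smallest dose was known beforehand. This p is therefore no separate support for that fall. Tsc22d3 minus Dusp1 changed by -1.29, below the vehicle range in 9 of 12 treated rats, and missed the threshold after adjustment (exact p = 0.00517, adjusted 0.0517). The change against Sgk1 was -0.70 (exact p = 0.0979, adjusted 0.195) and that against Fkbp5 was -0.06 (exact p = 0.999). Without the 3 arrays that stood apart the change against Fkbp5 was 0.12, of the opposite sign, and that against Nr3c1 was -1.16 (adjusted exact p = 0.01998). At a single dose 3 treated and 5 vehicle rats allow no p below 0.0357, and no test at a single dose passed after adjustment.

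How the members moved together from rat to rat was read from the deviations of each rat from its group mean, over 17 rats and 10 pairs of members, with exact permutation within groups. Tsc22d3 and Fkbp5 had r = 0.57 and rho = 0.70 (exact p = 0.00854 and 0.00826, adjusted 0.0427 and 0.0413). In vehicle rats the order of the 2 genes was the same: rats 2 and 4 were the highest for both and rat 5 the lowest for both. Without the 2 rats farthest from the median of Tsc22d3 the r was 0.44 and no longer passed (adjusted exact p = 0.352). The call was also lost in 13 of the 17 cases with 1 rat left out, where r ran from 0.47 to 0.69, and without the 3 arrays that stood apart (r = 0.63, adjusted exact p = 0.176). Sgk1 and Nr3c1 had r = 0.71 and rho = 0.73 (exact p = 0.00745 and 0.00732, adjusted 0.0427 and 0.0413), and without the 2 farthest rats r was 0.51 and did not pass (adjusted exact p = 0.201). Its call was lost in 15 of the 17 cases with 1 rat left out, with r from 0.57 to 0.77, and without the 3 arrays (r = 0.71, adjusted exact p = 0.101). The other 8 pairs had r between -0.22 and 0.47 and none passed. The values of 1 rat share its array and tissue piece, and the 3 arrays that stood apart are among the rats.

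**Figure D3:**
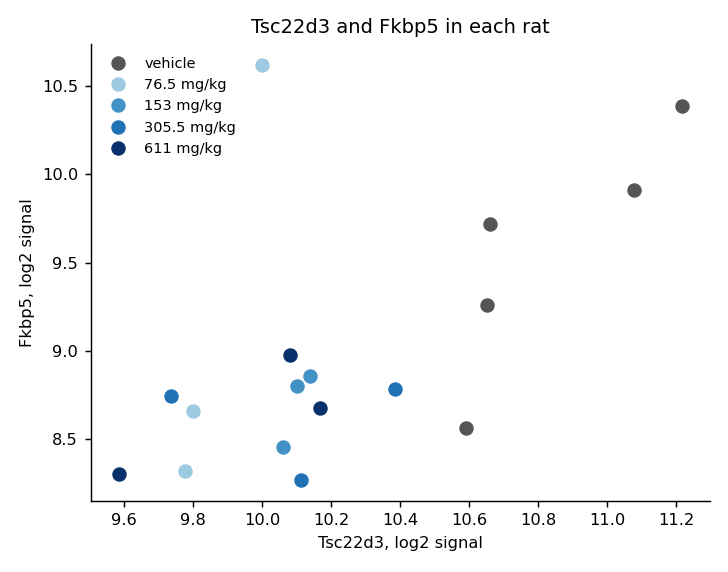
Log2 signal of Fkbp5 against log2 signal of Tsc22d3 in each of the 17 rats, coloured by group. Treated rats lie below the vehicle rats on the Tsc22d3 axis, and on the Fkbp5 axis the 76.5 mg/kg rat at 10.62 stands apart from the other 11 treated rats, which lie between 8.27 and 8.98.

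The receptor's own complex was read from 15 of 19 listed genes. None passed in limma at 76.5, 153 or 305.5 mg/kg (0, 3 and 6 had an unadjusted p under 0.05), and at 611 mg/kg 3 rose and 1 fell, against 5.04% and 2.42% of all genes. The list's median difference at 611 mg/kg was -0.12, and that of all genes was 0.00. The genes that rose were Nr3c1, Nr3c2, which encodes the mineralocorticoid receptor, and Ywhah, an adaptor protein that binds phosphorylated partners, which differed by 0.33 ± 0.08 (limma adjusted p = 0.0158). Nr3c2 had a vehicle mean of log2 6.86 and differed by -0.07, 0.37, 0.30 and 0.54 ± 0.12 (SE) across the doses, and passed at the last (limma adjusted p = 0.0103). Its order of group means was therefore nearly that of Nr3c1. Fkbp4, the co-chaperone that replaces Fkbp5 when hormone binds, differed by -0.43, -0.73, -0.63 and -0.98 ± 0.21 and passed at 611 mg/kg (limma adjusted p = 0.0106). Without rat 2 at 611 mg/kg, 1 of the arrays that stood apart, neither Nr3c2 nor Fkbp4 passed (limma adjusted p = 0.06505 and 0.07836).

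**Figure D4:**
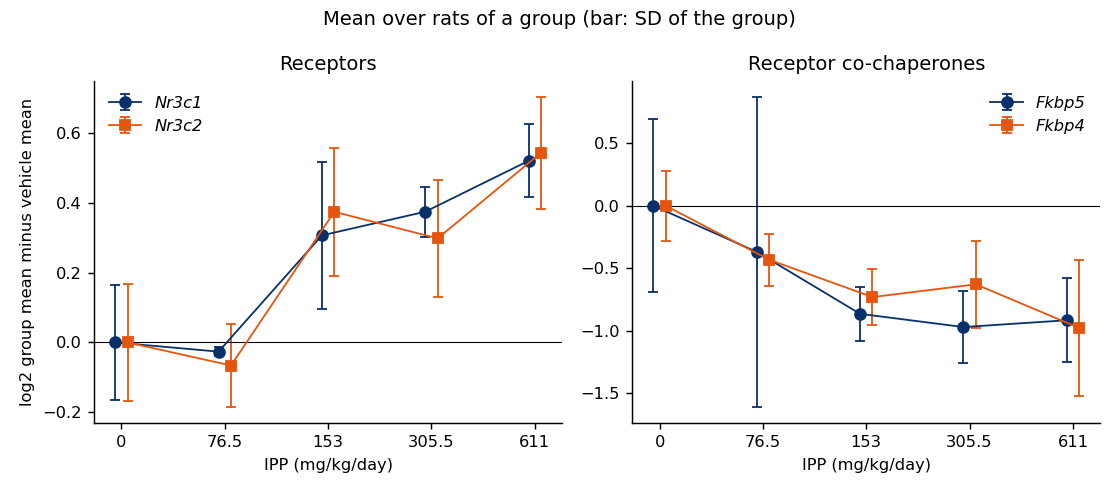
Log2 group mean minus vehicle mean against the daily dose of IPP in mg/kg, for the receptor genes Nr3c1 and Nr3c2 (left) and the co-chaperone genes Fkbp5 and Fkbp4 (right); bars are the SD of the group. The receptor genes are near 0 at 76.5 mg/kg and at 0.52 and 0.54 at 611 mg/kg, and the co-chaperone genes are at -0.92 and -0.98 there.

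The chaperone genes Hsp90ab1, Stip1 and Ptges3 differed at 611 mg/kg by -0.34 ± 0.12, -0.35 ± 0.13 and -0.02 ± 0.06 and did not pass (limma adjusted p = 0.0943, 0.103 and 0.842). Of 13 measured coregulators of the receptor, 0 passed in limma at any dose (at most 1 had an unadjusted p under 0.05). Of 9 measured genes of corticosteroid supply and clearance, 0 passed in limma at the 3 smaller doses (3, 2 and 3 had an unadjusted p under 0.05) and 1 at the largest: Abcb1a, which encodes a drug efflux pump that also exports corticosteroids, rose by 1.18 ± 0.25 (limma adjusted p = 0.00946). Hsd11b1, which makes active corticosterone in liver, differed there by 0.14 ± 0.10, H6pd, which supplies its cofactor, by -0.17 ± 0.18, and Serpina6, the corticosteroid carrier of plasma, by -0.21 ± 0.11, and these 3 genes did not pass at any dose. Circulating corticosterone was not analysed here.

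Whether other glucocorticoid targets fell with Tsc22d3 was read from 41 of 45 listed genes, 4 of them members. Those that passed were 0 higher and 2 lower at 76.5 mg/kg, 1 higher and 2 lower at 153 mg/kg, 2 higher and 5 lower at 305.5 mg/kg, and 3 higher and 4 lower at 611 mg/kg, Tsc22d3 among the lower ones at each dose. Over all genes 0.141%, 0.408%, 0.753% and 5.04% were higher and 0.127%, 0.338%, 1.47% and 2.42% lower. The list's median difference was 0.06, 0.10, 0.02 and 0.05, and that of all genes lay between 0.00 and 0.01. The list therefore held genes that rose and genes that fell, and most of its members did not pass. Leaving out 1 rat gave 0 to 3, 1 to 2, 3 to 10 and 3 to 8 genes other than members that passed at the 4 doses, against 1, 2, 6 and 6 with all rats. 

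Among the targets that fell was Cdkn1a, a cell cycle inhibitor that p53 also induces. It differed by -1.86, -2.56, -2.70 and -2.52 ± 0.37 (SE) and passed at all 4 doses (limma adjusted p = 0.0384, 0.00213, 0.000738 and 0.000696), although the call at 76.5 mg/kg was lost in 15 of the 17 fits without 1 rat (adjusted p up to 0.196, without rat 2 of that dose). Angptl4, an inhibitor of lipoprotein lipase, and Pdk4, an inhibitor of pyruvate dehydrogenase, both also induced by PPAR alpha, fell by 1.89 and by 1.45 on the log2 scale at 305.5 mg/kg (limma adjusted p = 0.000548 and 0.00833). Angptl4 was at a mean of log2 10.50 at 76.5 mg/kg and 11.17 at 153 mg/kg, against 11.50 in vehicle rats. Pdk4 was at 10.05 and 9.60 at these doses, against 10.54, and neither gene passed at them. At 611 mg/kg the same genes fell by 1.01 and by 1.25 (limma adjusted p = 0.0207 and 0.0113). Without rat 2 at 611 mg/kg those 2 calls were lost (limma adjusted p = 0.139 and 0.0829), and Pdk4 was also lost without rat 3 there (0.0531) and without rat 2 or 3 at 305.5 mg/kg (0.05173 and 0.05054). Zfp36, which destabilises inflammatory mRNAs, fell at 305.5 mg/kg alone, by 0.85 on the log2 scale (limma adjusted p = 0.0356), and was at -0.22 ± 0.20 at 611 mg/kg.

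Among the targets that rose was Ddit4, an inhibitor of mTORC1 signalling, which differed by 1.37, 2.14, 2.14 and 1.41 ± 0.37 and passed from 153 mg/kg upward (limma adjusted p = 0.00900, 0.00483 and 0.0296). Mt2A, a metallothionein, passed at 305.5 and 611 mg/kg with 1.04 and 1.03 ± 0.22, and Klf15, a transcription factor of amino acid catabolism, passed at 611 mg/kg with 0.80 ± 0.17 (limma adjusted p = 0.0198, 0.0103 and 0.00792). Mt2A was already at a mean of log2 14.23 at 76.5 mg/kg and 14.06 at 153 mg/kg, without passing. Its mean was 13.22 in vehicle rats and 14.25 at each of the 2 larger doses. The call of Ddit4 at 611 mg/kg was lost in 6 of the 17 fits without 1 rat (adjusted p up to 0.0963) and its call at 153 mg/kg without rat 2 or 3 of that dose (0.0544 each), that of Mt2A at 305.5 mg/kg without vehicle rat 1 or rats 1 or 2 of that dose (up to 0.122), and that of Klf15 was lost without rat 2 at that dose (adjusted p = 0.0511). Tat, which breaks down tyrosine and is a standard glucocorticoid target of liver, differed by 0.65, 0.74, 1.35 and 0.26 ± 0.35 and did not pass (limma adjusted p = 0.533, 0.415, 0.0525 and 0.685). Per1, Klf9, Tdo2, Pck1, Igfbp1, Nfkbia, Cebpd and Cebpb did not pass at any dose, with differences at 611 mg/kg from -0.72 for Igfbp1 to 0.44 for Pck1. Per1 and Klf9, which respond to glucocorticoids in many tissues, differed there by 0.11 ± 0.15 and 0.00 ± 0.19.

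**Figure D5:**
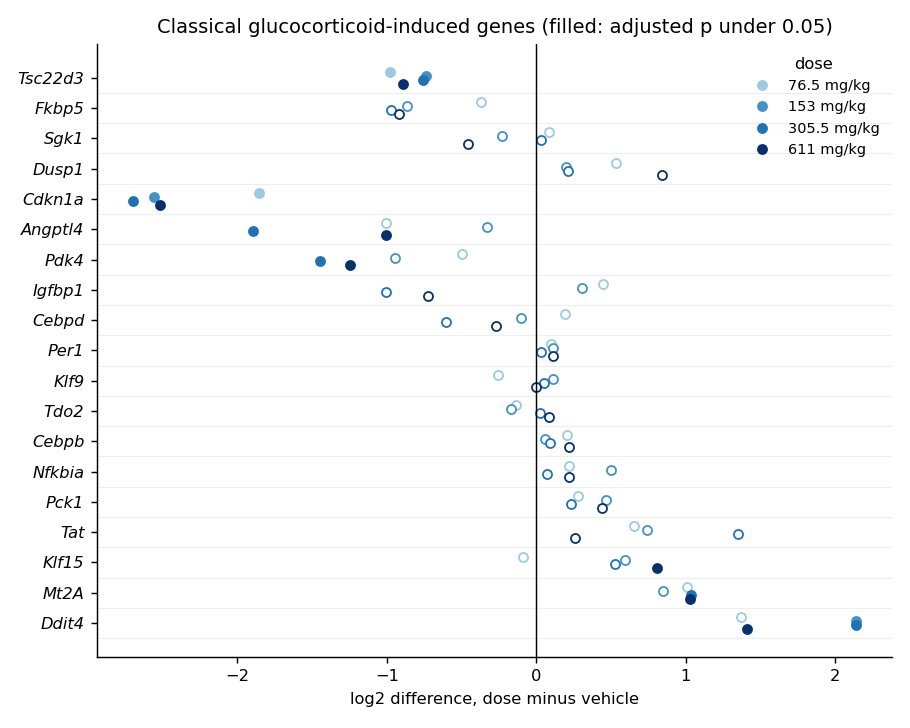
Log2 difference from vehicle at each dose for 19 classical glucocorticoid-induced genes, 4 members first; filled points passed at an adjusted p under 0.05, and the doses run from top to bottom within a gene. Cdkn1a is lower at every dose, Ddit4 is highest at 153 and 305.5 mg/kg, at 2.14, and Per1 and Klf9 lie near 0.

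Relatives of the members were read from lists of their families. None of 3 relatives of Tsc22d3 and none of 9 genes of the Sgk1 group passed in limma at any dose (at most 1 of each had an unadjusted p under 0.05). Tsc22d1 and Tsc22d4, which carry the same kind of leucine zipper domain, differed at 611 mg/kg by -0.32 ± 0.28 and -0.26 ± 0.09, and the kinases Sgk2 and Sgk3 by 0.38 ± 0.26 and 0.02 ± 0.11. Of 15 measured genes of the Dusp1 group 1 passed: Dusp6, the phosphatase of ERK kinases. It fell at 153, 305.5 and 611 mg/kg by 1.36, 1.47 and 1.46 on the log2 scale (limma adjusted p = 0.0113, 0.00332 and 0.00188). At these doses 0.338%, 1.47% and 2.42% of all genes were lower. The first call was lost without rat 1 at 153 mg/kg (0.0912). Of 11 relatives of Fkbp5, Fkbp11, a prolyl isomerase of the endoplasmic reticulum, and Fkbp15 rose at 611 mg/kg by 0.54 ± 0.12 and 0.31 ± 0.09 (limma adjusted p = 0.00990 and 0.0392), the former not without rat 2 there (0.0697). At that dose 5.04% of all genes were higher.

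Dusp1 is also an immediate early gene, transcribed within minutes of a stimulus, and 23 of 25 such genes were measured. None rose at any dose, and 0, 1, 5 and 4 fell from the smallest to the largest dose, Dusp1 not among them. Over all genes 0.127%, 0.338%, 1.47% and 2.42% were lower at these doses. Leaving out 1 rat gave numbers that passed, in either direction, of 0 to 2, 1 to 2, 2 to 6 and 1 to 4. The transcription factor genes Egr1 and Junb differed by -2.35 ± 0.52 and -1.08 ± 0.17 at 611 mg/kg (limma adjusted p = 0.0115 and 0.00149), and Ier2 and Ier5 passed there as well with -0.86 ± 0.21 and -0.51 ± 0.13. Egr1 also passed at 305.5 mg/kg with -2.99 (limma adjusted p = 0.00466). At 76.5 and 153 mg/kg its means were log2 8.75 and 8.71, against 10.66 in vehicle rats, without passing. Junb also passed at 153 and 305.5 mg/kg with -1.10 and -1.11 (limma adjusted p = 0.00516 and 0.00243). Fos was dim, with a vehicle mean of log2 5.98, and passed at no dose. Without rat 2 at 611 mg/kg the calls of Egr1, Ier2 and Ier5 there were lost (limma adjusted p = 0.0798, 0.102 and 0.129), and that of Junb held in all 17 fits without 1 rat. At 305.5 mg/kg the call of Ier2 was lost without vehicle rat 2 or 3 or rat 2 of that dose (limma adjusted p up to 0.153), and that of Ier5 without rat 2 or 3 of that dose (up to 0.0798).

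The genes whose log2 signal was most like that of each member over the 17 rats were chosen by Pearson's r among 10524 genes with a mean of at least log2 6, and are a description without a test. For Tsc22d3 they were Rhbdl3, Bcor and Mtss1, with r of 0.85, 0.84 and 0.84. For Fkbp5 they were Slc25a15, Wdr77 and Dcaf13, with r of 0.96, 0.93 and 0.90. Slc25a15, the mitochondrial ornithine carrier of the urea cycle, differed from vehicle at 611 mg/kg by -0.23 (limma adjusted p = 0.301). For Nr3c1 they were Nr3c2, Cox15 and Arf2, with r of 0.93, 0.90 and 0.90. These passed at 611 mg/kg, with limma differences of 0.54, 0.42 and 0.29, where 5.04% of all genes were higher. Rhbdl3 and Bcor passed there as well, with -0.33 and -0.54, where 2.42% were lower, and Mtss1 did not. The genes were picked by likeness over the same rats, so such passes follow in part from the choice and are no separate support. The r of Sgk1 with Atxn7, Mier1 and Chd1 was 0.79, 0.78 and 0.77, and that of Dusp1 with Ebp, Etv3 and Grb14 was 0.78, 0.77 and 0.75. The points share arrays and dose groups, and the r of every member holds the differences between groups.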

How the data were processed

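Liver RNA of 17 rats was measured with 1 array each, and groups and doses were taken from the sample labels. The log2 values had been made by the authors with RMA, per the submitters' processing notes; neither software nor version is given in the sources used here. The deposited values lay between 2.61 and 15.4 (array medians 6.29 to 6.40) and were used without further normalization or a filter. Quantile normalization, a part of RMA, sets the arrays on a common distribution, so differences are relative to the other genes. Of 31099 probe sets, 57 were controls, 20826 had 1 gene symbol in the platform table (annotation of 2016), 436 several and 9780 none. Gene IDs of 20758 single-symbol probe sets were found in the RefSeq gene table. The brightest probe set stood for each of 14217 genes, a choice for 4525 of them.

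Group differences came from limma 3.58.1 in R 4.3.3, as 1 linear model over 17 arrays with 5 groups and a variance trend over mean signal in eBayes. The steps were each dose against vehicle, neighbouring doses, a moderated F test and a slope over the dose rank (0 to 4). Benjamini-Hochberg adjustment ran over all genes of a comparison, with a call under 0.05. Single comparisons of the members used exact permutation in Python 3.11.15. The fits were tested on simulated data. The number of arrays limits the precision.

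The 5 genes, the lists and the markers were chosen with earlier results of these data known. From the lists the text named standard genes whatever their result and up to 4 further genes per list that passed over all groups and the 3 genes most like each member. Ywhah, Fkbp15, Zfp36, Acta2, Epcam and Krt7 fall outside that rule and were named after their values were seen. Replicate numbers did not pair the rats: over 30 pairs of rats with the same number in different groups the correlation of deviations ran from -0.259 to 0.399, with a median of 0.011. Alternatives were robust eBayes or eBayes with no trend, weighted arrays, arrays centred on their medians or quantile normalized again, the replicate number as a block, every probe set or their mean, tests without the dimmest 40% of genes, each dose with vehicle alone, leaving out each rat, omission of the 3 arrays that stood apart, the GAPDH control difference as a covariate, and other slopes.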

Additional observations from a re-analysis of the deposited data

How the results depend on the processing

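The members that passed at 611 mg/kg, 2 of 5, stayed 2 in every fit that left out 1 rat and became 1 with the mean over probe sets, where Nr3c1 was lost. At 76.5 mg/kg the count of 1 became 2 with array weights (Dusp1 added) and 0 without the 3 arrays that stood apart or with that dose and vehicle alone. At 153 mg/kg it became 0 with the mean over probe sets, with every probe set tested and with the replicate block. At 305.5 mg/kg it became 2, with Nr3c1 added, with median centring, repeated quantile normalization, array weights and without the 3 arrays. The slope's count of 2 became 1 with every probe set, array weights, the replicate block or dose in mg/kg, and 0 without the 611 mg/kg group or over the treated rats alone, where the slope of Tsc22d3 was 0.024; without the 3 arrays the count was 3, with Fkbp5 added. The F test's count of 2 became 1 with the mean over probe sets and without the 3 arrays, and 3 with array weights (Dusp1 added). Leaving out 1 rat gave counts of 0 to 1 at each of the 3 smaller doses, 1 to 2 for the slope and 2 to 2 for the F test. Among the targets other than members, 1, 2, 6 and 6 passed from the smallest to the largest dose, and 0 to 10, 1 to 4, 3 to 12 and 3 to 12 did under the alternatives. The difference of Tsc22d3 and Dusp1 passed in 4 of 21 alternatives, among them the mean over probe sets (-1.26, adjusted exact p = 0.0194). It ranged from -1.46 to -1.14 without 1 rat. Those with Nr3c1 ran from -1.24 to -1.02, with Sgk1 from -0.84 to -0.55 and with Fkbp5 from -0.17 to 0.12, the last also 0.12 without the 3 arrays. Signs also turned for values that had not passed. With the replicate block Sgk1 was at -0.16 and -0.21 at 76.5 and 305.5 mg/kg and Dusp1 at -0.071 and -0.060 at 153 and 305.5 mg/kg, and with array weights Sgk1 was at 0.050 at 153 mg/kg. Without 1 rat Sgk1 ran from -0.18 to 0.33, -1.02 to 0.42 and -0.39 to 0.61 at the 3 smaller doses and Dusp1 from -0.068 to 0.99, -0.17 to 0.61 and -0.14 to 0.57, while at 76.5 mg/kg Fkbp5 ran from -1.08 to 0.072 and Nr3c1 from -0.086 to 0.029. The weak correlations between members turned too. Fkbp5 with Sgk1 was -0.058 with the mean over probe sets, -0.011 with repeated quantile normalization, -0.080 without the 3 arrays, -0.11 without the 2 farthest rats and -0.11 to 0.12 without 1 rat. Fkbp5 with Dusp1 was 0.15 without the 3 arrays, 0.034 without the farthest rats and -0.36 to 0.17 without 1 rat. Fkbp5 with Nr3c1 was 0.19 and Tsc22d3 with Nr3c1 was 0.17 with the mean over probe sets, and without 1 rat they ran from -0.16 to 0.017 and from -0.16 to 0.16. Tsc22d3 with Dusp1 was -0.10 without the farthest rats and -0.11 to 0.17 without 1 rat. The r of Tsc22d3 and Fkbp5 missed the threshold in 16 of 22 alternatives and that of Sgk1 and Nr3c1 in 18 of 22, with the sign kept in all. That of Dusp1 and Nr3c1, which had not passed, did so in 1 of 22 (adjusted exact p = 0.0397). The cause of these changes was not tested. The replicate numbers did not pair the rats, so the block is an alternative only.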
